A study of Mus musculus with 46 samples.

Results

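The genes of oxidative phosphorylation were followed here at the RNA level, in 46 mouse libraries from a study of intravenous immunoglobulin (IVIG, pooled antibodies given as a drug) in an antibody-induced model of mucous membrane pemphigoid, in which autoantibodies to laminin 332 blister the mucosa. The members were all genes whose symbol starts with mt-, Nduf, Sdh, Uqcr, Atp5 or Cox4 to Cox8, without pseudogene symbols, that had at least 10 counts in at least 4 libraries. This gave 119 genes of 140 with such names and of 46264 genes in the table. They comprised 13 mRNAs, 2 rRNAs and 7 tRNAs of the mitochondrial genome, 85 nuclear-encoded subunits and 12 nuclear-encoded assembly factors. Of the nuclear subunits, 38 were counted by symbol in complex I, 4 in complex II, 8 in complex III, 18 in complex IV and 17 in complex V. The 38 include Ndufb4c, annotated as a processed pseudogene, which the filter on symbols did not remove.

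The 46 libraries fell into 2 sets. In the first, 12 libraries carried the label Ics with no further name of the agent or of the cells: 4 unstimulated (0 h), 4 stimulated for 3 h and 4 for 6 h, numbered m1 to m4 at each time. In the second, 34 libraries came from mice given IVIG or phosphate-buffered saline (PBS), with 5 blood, 5 neutrophil and 3 skin libraries for each treatment, 3 monocyte libraries for IVIG and 5 for PBS. According to the protocol the RNA was from bone marrow derived neutrophils and monocytes or from whole blood. Strain, sex and age were not stated, and neither was whether the replicates were separate animals, so p-values measure the spread between these libraries only.

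Oxidative phosphorylation is carried by 5 protein complexes in the inner mitochondrial membrane. Complexes I and II pass electrons from NADH and succinate to ubiquinone, complexes III and IV pass them on through cytochrome c to oxygen, and complex V (ATP synthase) makes ATP from the proton gradient. The mitochondrial genome encodes subunits of complexes I, III, IV and V, made by ribosomes that contain the 2 mitochondrial rRNAs, and it encodes none of complex II. Its mRNAs are cut from long transcripts of the 2 DNA strands, whereas the nuclear subunits are transcribed from separate genes. Mature neutrophils have few mitochondria and depend largely on glycolysis.

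The promoters of nuclear subunits often hold sites for NRF1 and for ETS-family factors such as GABP, both regulators of mitochondrial genes. Promoters of 300 bases (250 before the start of transcription to 50 after it, RefSeq, GRCm38.p6) were available for 80 of the 97 nuclear members. The NRF1 motif (GCGC, any 2 bases, then GCGC), searched on both strands, was in 28.2% of 85 member promoters and in 6.23% of 32851 promoters of all genes. The ETS motif CCGGAAG was in 25.9% and 8.86%. Of the tested genes whose promoter held the NRF1 motif, 1 of 22 rose and 6 of 22 fell at 6 h of Ics stimulation, against 10 and 18 of 54 without it, when 29.6% of all genes rose and 30.4% fell (edgeR, adjusted p under 0.05). With the ETS motif 3 of 21 rose and 4 fell at 6 h, against 8 and 20 of 55 without it. At 3 h, with 26.9% of all genes up and 27.5% down, 1 rose and 4 fell of 22 with the NRF1 motif, and 5 rose and 4 fell of 21 with the ETS motif, against 8 and 17 of 54 and 4 and 17 of 55 without. These differences were not tested. Uqcr11, whose promoter holds the ETS motif, is among those that fell. The 3 promoters are printed because their genes carry contrasting responses described further on: Ndufa6 (chr15:82354242-82354541, minus strand) rose at 6 h, while Ndufa8 (chr2:36049289-36049588, minus strand) and Uqcr11 (chr10:80406772-80407071, minus strand) fell. Capitals mark the NRF1 motif in Ndufa6 and Ndufa8 and the ETS motif in Uqcr11. A match is a run of letters, not a site shown to be bound.
Ndufa6: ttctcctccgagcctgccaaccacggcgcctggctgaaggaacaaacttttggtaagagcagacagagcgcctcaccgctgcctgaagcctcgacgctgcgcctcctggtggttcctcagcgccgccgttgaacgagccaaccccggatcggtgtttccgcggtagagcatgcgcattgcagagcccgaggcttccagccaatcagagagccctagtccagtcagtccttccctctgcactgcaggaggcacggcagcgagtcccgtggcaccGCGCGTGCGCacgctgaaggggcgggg
Ndufa8: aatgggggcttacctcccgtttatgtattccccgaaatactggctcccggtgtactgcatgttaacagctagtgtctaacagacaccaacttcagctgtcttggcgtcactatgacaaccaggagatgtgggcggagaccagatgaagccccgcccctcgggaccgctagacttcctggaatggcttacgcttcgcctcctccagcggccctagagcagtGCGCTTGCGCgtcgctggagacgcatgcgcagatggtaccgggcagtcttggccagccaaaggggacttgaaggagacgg
Uqcr11: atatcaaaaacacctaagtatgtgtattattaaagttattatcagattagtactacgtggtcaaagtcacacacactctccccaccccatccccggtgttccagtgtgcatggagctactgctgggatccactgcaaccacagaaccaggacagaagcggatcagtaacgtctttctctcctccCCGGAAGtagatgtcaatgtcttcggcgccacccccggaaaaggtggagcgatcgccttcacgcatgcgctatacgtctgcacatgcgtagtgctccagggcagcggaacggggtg
Ndufa6 and Ndufa8 thus held the same motif in their promoters and their RNA levels moved in opposite directions.

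Total estimated counts ranged from 18965431 to 43176537 per library. The Ics libraries held the neutrophil markers S100a8 and S100a9 at high levels, and in CPM (counts scaled to a common library total) the 8 neutrophil markers summed to between 90717 and 99811 at 0 h, 67502 to 81523 at 3 h and 54515 to 60823 at 6 h. Krt5 and Krt14, defining keratinocyte markers, were at 0 in all 12. In the tissue set, 25 of 34 libraries fell by their markers into the class of their label: 6 of 10 blood, 8 of 10 neutrophil, 7 of 8 monocyte and 4 of 6 skin libraries. The other 9 held those of another tissue, such as 2 skin-labelled libraries with over 10% haemoglobin counts. Tissue comparisons used the 25 matching libraries and none was given another label. The monocyte class was what remained after the limits for the other 3 and asked for no monocyte marker. Of its 7 matching libraries, 3 (IVIG replicate 2 and PBS replicates 2 and 3) held more neutrophil than monocyte marker counts, and PBS replicate 3 had Csf1r at 147 CPM of the counts outside mitochondrial and haemoglobin genes, below every matching neutrophil library. Those 3 are absent from the values of title series 3 given further on.

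Over the Ics time course, mitochondrial mRNA fell and mitochondrial rRNA rose. The 13 mitochondrial mRNAs held 0.425% to 0.528% of all counts in the 4 libraries at 0 h, 0.317% to 0.383% at 3 h and 0.293% to 0.311% at 6 h. The 3 ranges did not overlap. At 3 h, 0 of 13 mitochondrial mRNAs rose and 9 fell (edgeR quasi-likelihood test, adjusted p under 0.05), with a median log2 change of -0.30, when 54.4% of the 14996 genes tested passed, 26.9% upward and 27.5% downward, and the median of all genes was -0.06. At 6 h, 0 rose and 11 of 13 fell, with a median of -0.55, when 60.0% of all genes passed, 29.6% upward and 30.4% downward, around a median of -0.06. Between 3 h and 6 h, 7 of 13 fell and 0 rose, against 20.3% of all genes downward, 20.5% upward and 40.8% in all.

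All 7 mt-Nd mRNAs fell at 6 h, by log2 changes from -0.97 to -0.55. Of the 3 complex IV mRNAs, mt-Co1 and mt-Co3 fell and the range over the 3 was -0.42 to -0.23, so that the fitted changes of the 2 families did not overlap. The difference between the families was not tested. mt-Nd1, a membrane subunit of complex I (GRCm38, mitochondrial genome), stood at 209, 159, 173 and 157 TMM-scaled CPM at 0 h, at 130, 158, 119 and 111 at 3 h, and at 93.2, 99.5, 94.6 and 90.4 at 6 h. Each 6 h library lay below every 0 h and 3 h library, and the 3 h library m2 lay among those of 0 h. The log2 change of mt-Nd1 was -0.43 ± 0.11 (SE) at 3 h and -0.89 ± 0.11 at 6 h. mt-Nd5, the proton-pumping subunit at the far end of the complex I membrane arm, stood at 209, 167, 191 and 168 CPM at 0 h, at 147, 150, 131 and 127 at 3 h and at 87.0, 115, 105 and 101 at 6 h. Its 3 groups did not overlap, and it fell by 0.85 ± 0.09 on the log2 scale at 6 h. mt-Nd2 (-0.88 ± 0.10) and mt-Nd4l (-0.97 ± 0.14) fell as far, while mt-Nd4 fell by 0.55 ± 0.07.

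mt-Co1, the catalytic subunit of complex IV, was the most abundant of the 13 per kilobase in unstimulated libraries. It stood at 2011, 1681, 1693 and 1713 CPM at 0 h, at 1523, 1782, 1482 and 1515 at 3 h, and at 1308, 1319, 1353 and 1320 at 6 h. The 6 h libraries lay below all others, and those of 0 h and 3 h overlapped through the 3 h library m2. Its log2 change was -0.17 ± 0.07 at 3 h and -0.42 ± 0.07 at 6 h. mt-Co2, the subunit that takes electrons from cytochrome c, did not pass at either time (0.03 ± 0.14 and -0.23 ± 0.14). mt-Cytb, the mitochondrially encoded core of complex III, fell by 0.30 ± 0.09 and 0.52 ± 0.09. mt-Atp6, the proton channel of ATP synthase, changed by -0.20 ± 0.14 at 3 h, which did not pass, and fell by 0.48 ± 0.14 at 6 h. mt-Atp8 fell by 0.92 ± 0.28 at 3 h and stood at -0.33 ± 0.27 at 6 h without passing. Its 0 h value in library m3 was 32.5 CPM, against 14.0 to 16.7 in the other 3. mt-Atp8 overlaps mt-Atp6, and mt-Nd4l overlaps mt-Nd4, so the split of reads within these pairs is uncertain, as is mt-Nd6, which lies on the opposite strand in counts whose strand handling was not given.

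The shift within the mitochondrial mRNAs can be seen in their shares. The 7 mt-Nd mRNAs made up 20.2% ± 0.55 (SD, n = 4) of mitochondrial mRNA at 0 h, 17.9% ± 0.58 at 3 h and 16.7% ± 1.01 at 6 h. The range was 19.6% to 20.8% at 0 h, above 17.1% to 18.4% at 3 h, which overlapped 15.4% to 17.8% at 6 h. The 3 mt-Co mRNAs rose in share from 63.0% to 66.1% and 67.0%. Shares were not tested.

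**Figure D1:**
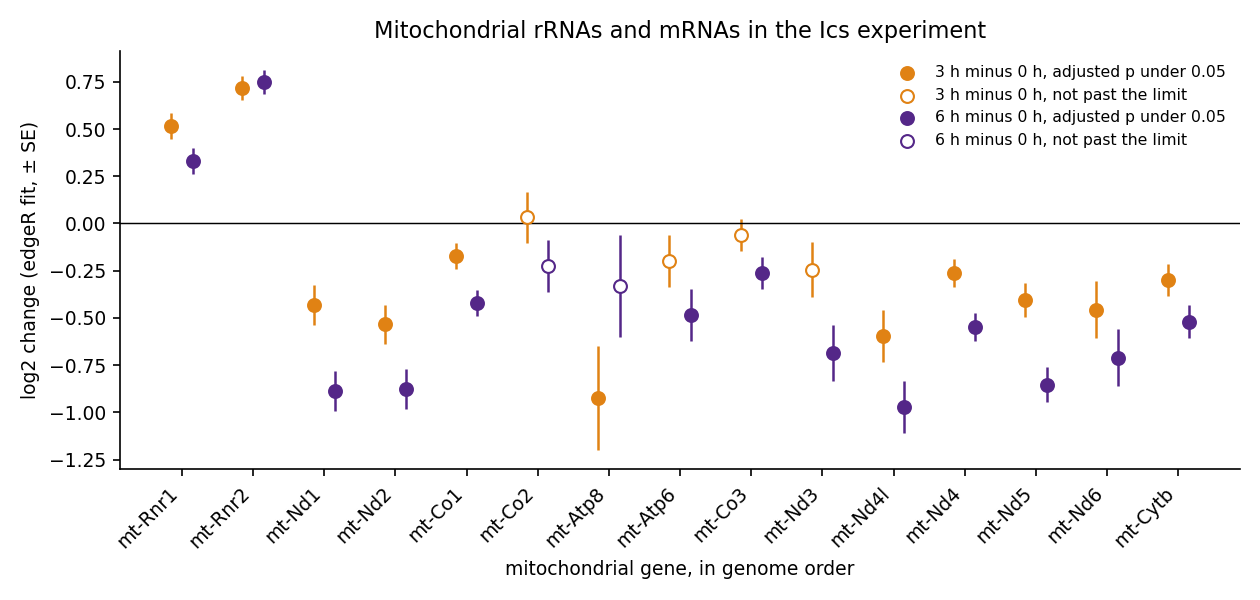
Log2 change from 0 h (edgeR fit, bars are SE) of the 2 mitochondrial rRNAs and 13 mRNAs, in genome order, at 3 h (orange) and 6 h (purple), with 4 libraries per time; filled points passed an adjusted p of 0.05 and open points did not. Both rRNAs lie above 0, and the mt-Nd mRNAs at 6 h lie between -0.97 and -0.55, below the mt-Co mRNAs.

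The rRNAs of the mitochondrial ribosome went the other way from the mRNAs. mt-Rnr2 (16S) stood at 700, 690, 679 and 703 CPM at 0 h, at 1059, 1288, 1098 and 1113 at 3 h, and at 1183, 1088, 1276 and 1110 at 6 h. All 8 stimulated libraries lay above the 4 unstimulated ones, and those of 3 h and 6 h overlapped. Its log2 change was 0.72 ± 0.07 at 3 h and 0.75 ± 0.07 at 6 h. mt-Rnr1 (12S) stood at 272, 260, 248 and 278 CPM at 0 h, at 357, 416, 376 and 364 at 3 h and at 350, 318, 364 and 300 at 6 h. It rose by 0.51 ± 0.07 at 3 h and by 0.33 ± 0.07 at 6 h, and was the only mitochondrial rRNA that fell between 3 h and 6 h. As a result the rRNAs, at 20.6% to 25.0% of the mitochondrial mRNA count at 0 h, reached 39.5% to 42.8% at 3 h and 46.3% to 53.1% at 6 h. These libraries were enriched for polyadenylated RNA, so rRNA counts reflect only what was carried through that step. Of the 7 tRNA members, mt-Tp alone was tested and it did not pass at either time.

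Several nuclear pseudogenes are near-identical to mitochondrial mRNAs and can take reads from them. Gm28661 is identical to mt-Co2 over its aligned length and held between 0.196% and 23.6% of the pair in single Ics libraries. With the copy added, mt-Co2 changed by -0.08 and -0.28 on the log2 scale at 3 h and 6 h, mt-Co1 with Gm29216 by -0.15 and -0.37, and mt-Atp6 with Gm10925 by -0.20 and -0.44. The copies of mt-Nd3, mt-Nd4 and mt-Nd4l were at 0 in all Ics libraries. The sums were not tested.

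After TMM scaling, the nuclear subunits did not move as a body. At 3 h, 9 of 80 tested rose and 20 fell (median log2 change -0.10), and at 6 h 9 rose and 24 fell (median -0.04). Both upward shares were lower than those of all genes given above (26.9% and 29.6%) and the downward shares, 25.0% and 30.0%, were near the 27.5% and 30.4% of all genes. The 5 subunits not tested were Cox4i2, Cox6a2, Cox7a1, Cox8b and Ndufa4l2, at 0.247 CPM or less in every Ics library. In CPM of all counts, the scale of the mitochondrial percentages, the nuclear sums were lower with stimulation. They were 2789 to 3175 at 0 h, 2156 to 2606 at 3 h and 2501 to 2682 at 6 h. On that scale every stimulated library lay below every unstimulated one. Over all 106 members tested, 24 fell at both times, 8 rose at both and none changed direction among those called at both times, which share their 0 h libraries. Another 14 fell and 6 rose at 6 h only by the call. The share of all genes called the same way at both times was not computed. These counts can therefore not be read as particular to the members.

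The mitochondrial mRNA count relative to the nuclear subunit count declined. Its log2 ratio was 0.54 to 0.73 at 0 h, 0.35 to 0.55 at 3 h and 0.18 to 0.28 at 6 h. The 6 h libraries lay below all others and the ranges of 0 h and 3 h overlapped slightly. The means were 0.64, 0.48 and 0.21. With the rRNAs and tRNAs counted on the mitochondrial side, the mean at 3 h was 0.036 above that at 0 h and not below it. The ratio was given as a description and was not tested.

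**Figure D2:**
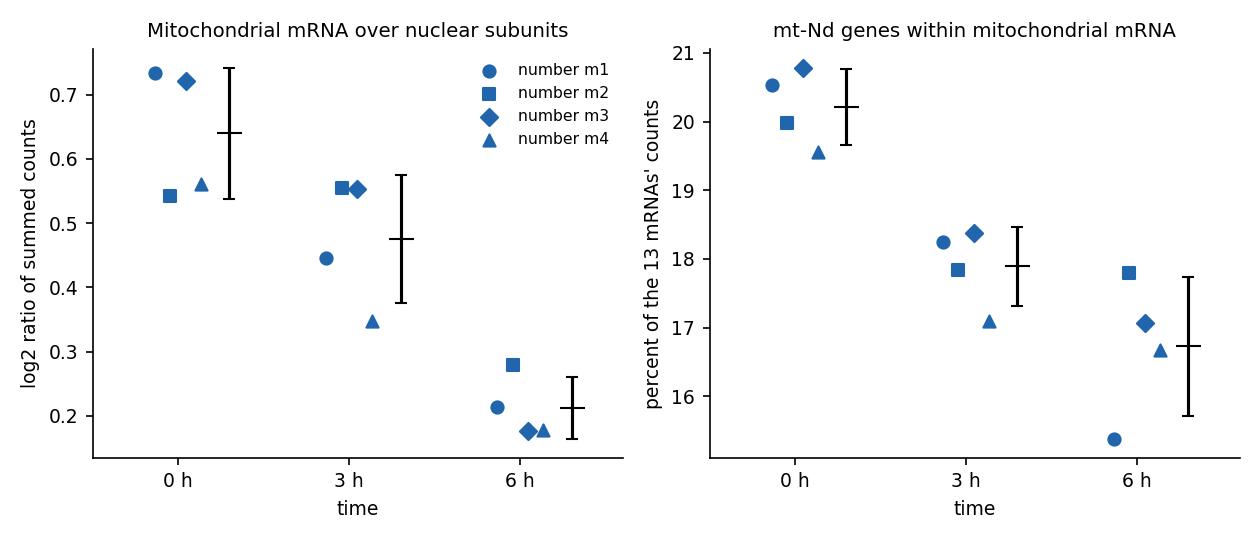
Left, log2 ratio of summed mitochondrial mRNA to summed nuclear subunit counts; right, mt-Nd mRNAs as a percentage of the mitochondrial mRNA count. Each point is 1 Ics library at 0, 3 or 6 h, with a symbol for each number m1 to m4, and bars show the mean ± SD of 4 libraries. The ratio means run from 0.64 to 0.48 and 0.21, and the mt-Nd means from 20.2% to 17.9% and 16.7%.

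Among complex I nuclear subunits, 2 of 38 rose and 14 fell at 3 h, and 3 rose and 13 fell at 6 h. Of all genes, 26.9% rose and 27.5% fell at 3 h, and 29.6% rose and 30.4% fell at 6 h. The counts for the other complexes and the assembly factors below are to be read against the same shares. Differences between complexes were not tested. Ndufv3, a small accessory subunit of the NADH-oxidising module, stood at 49.3, 45.5, 43.3 and 45.96 CPM at 0 h, 25.6, 29.2, 24.8 and 27.2 at 3 h, and 24.7, 19.8, 20.6 and 22.3 at 6 h. No stimulated library reached the unstimulated range, and its change at 6 h, -1.07 ± 0.08, was the largest fall among members with a mean of at least 5 CPM. Ndufa8, a subunit on the intermembrane-space side, stood at 37.4, 36.7, 38.4 and 35.4 CPM at 0 h, 20.6, 23.3, 18.7 and 21.8 at 3 h, and 21.9, 20.8, 22.0 and 24.6 at 6 h. Its level was thus already down at 3 h (-0.81 ± 0.08) and about the same at 6 h. Ndufa6, an accessory subunit that binds the mitochondrial acyl carrier protein, stood at 33.4, 33.98, 28.6 and 32.4 CPM at 0 h, 33.996, 33.3, 30.6 and 39.2 at 3 h, and 49.6, 42.2, 47.5 and 48.5 at 6 h. It was high only in the 6 h libraries, which lay above the other 8, and rose by 0.55 ± 0.08 from 0 h and by 0.45 ± 0.08 from 3 h.

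Ndufs8, which carries iron-sulphur clusters of the complex I core, was low at 3 h only. It stood at 13.6, 13.3, 13.2 and 11.6 CPM at 0 h, 7.79, 8.06, 6.53 and 8.37 at 3 h, and 14.0, 12.1, 13.7 and 12.5 at 6 h. It fell by 0.75 ± 0.10 from 0 h to 3 h and rose by 0.77 ± 0.10 from 3 h to 6 h. Ndufs7, its neighbour in the same electron path, rose by 0.46 ± 0.12 between 3 h and 6 h. Ndufa2 rose by 0.38 ± 0.09 at 3 h and Ndufc1 fell by 0.66 ± 0.22, the latter from a mean of 6.03 CPM with overlapping groups.

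**Figure D3:**
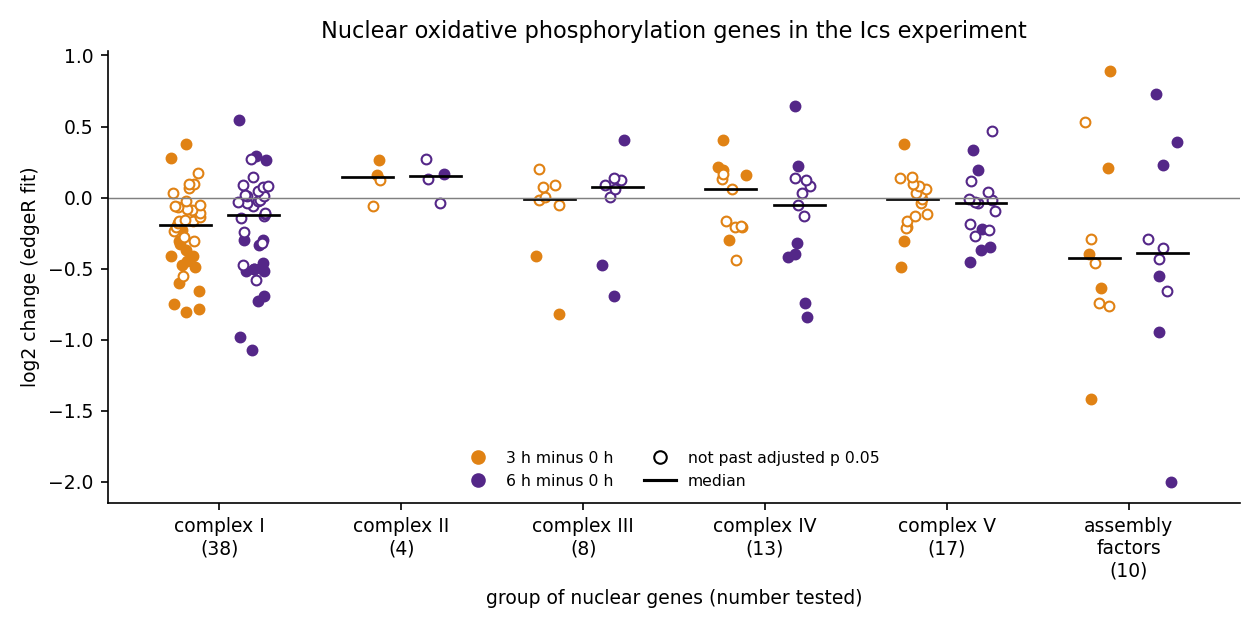
Log2 change from 0 h (edgeR fit) of each nuclear member tested, by complex and for assembly factors, at 3 h (orange) and 6 h (purple); filled points passed an adjusted p of 0.05, open points did not, and lines are medians. Points lie on both sides of 0 in every complex, with 14 of 38 complex I subunits called down at 3 h and 13 at 6 h. Of all genes, 27.5% were called down at 3 h and 30.4% at 6 h.

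Complex II, which has no mitochondrially encoded subunit, had 2 of 4 subunits called up at 3 h and 1 at 6 h, and none called down. Sdhb, its iron-sulphur subunit, stood at 47.4, 45.04, 45.8 and 45.7 CPM at 0 h, 56.7, 59.4, 49.2 and 55.6 at 3 h, and 50.8, 50.7, 51.8 and 53.0 at 6 h. On the TMM scale its stimulated libraries all lay above the unstimulated ones, and it rose by 0.26 ± 0.06 and 0.17 ± 0.06. In CPM of the counts outside mitochondrial and haemoglobin genes, the complex II subunits together did not rise. They summed to 244 to 273 at 0 h, 208 to 259 at 3 h and 236 to 259 at 6 h, with overlapping ranges. Sdhd, a membrane anchor, rose by 0.16 ± 0.06 at 3 h, but with library totals in place of TMM scaling its change was -0.086. Sdha, the flavoprotein that oxidises succinate, changed by -0.06 ± 0.09 and -0.04 ± 0.09, and Sdhc by 0.13 ± 0.15 and 0.27 ± 0.15. Neither passed.

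In complex III, 0 of 8 subunits rose and 2 fell at 3 h, and 1 rose and 2 fell at 6 h. Uqcr11, a small subunit, stood at 12.4, 11.4, 10.3 and 11.1 CPM at 0 h, 6.38, 7.47, 5.27 and 6.41 at 3 h, and 8.15, 6.24, 6.42 and 7.14 at 6 h. It was lower in every stimulated library and fell by 0.82 ± 0.13 at 3 h. Uqcr10, also a small subunit, rose by 0.40 ± 0.11 at 6 h.

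In complex IV, 4 of 13 tested subunits rose and 1 fell at 3 h, and 2 rose and 5 fell at 6 h. Cox7a2l, which is known to join complexes III and IV into supercomplexes, stood at 50.1, 48.5, 48.99 and 51.2 CPM at 0 h, 63.7, 70.9, 61.0 and 68.2 at 3 h, and 79.0, 73.6, 77.5 and 80.7 at 6 h. The 3 groups did not overlap and followed the order of time, with changes of 0.41 ± 0.06 and 0.65 ± 0.06. Cox7b, a small subunit, stood at 25.9, 22.4, 20.6 and 23.2 CPM at 0 h, 16.7, 22.7, 19.1 and 16.4 at 3 h, and 13.8, 13.8, 12.5 and 15.0 at 6 h. It was lowest at 6 h, where it fell by 0.74 ± 0.11. Cox4i1 and Cox8a rose by 0.16 ± 0.06 and 0.22 ± 0.07 at 3 h, and with library totals their changes were -0.087 and -0.033.

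Ndufa4, now counted with complex IV, and AA467197 moved in opposite directions. AA467197 is not a member. It is the mouse counterpart of human C15orf48, whose small protein is related to Ndufa4 and is known to take its place in complex IV during inflammation. Ndufa4 stood at 21.1, 17.6, 17.1 and 16.8 CPM at 0 h, 16.1, 18.0, 12.6 and 16.2 at 3 h, and 14.2, 12.8, 14.6 and 13.6 at 6 h. AA467197 stood at 38.9, 34.3, 34.7 and 36.3 CPM at 0 h, 50.9, 54.9, 43.3 and 46.7 at 3 h, and 51.4, 45.9, 52.04 and 47.1 at 6 h. At 6 h Ndufa4 fell by 0.40 ± 0.11 and AA467197 rose by 0.45 ± 0.08. At 3 h AA467197 rose by 0.44 ± 0.08 and Ndufa4, at -0.21 ± 0.11, did not pass.

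In complex V, 1 of 17 subunits rose and 3 fell at 3 h, and 2 rose and 4 fell at 6 h. Atp5b, the catalytic beta subunit, stood at 211, 195, 181 and 173 CPM at 0 h and at 222, 236, 256 and 244 at 6 h. It rose by 0.33 ± 0.08 at 6 h. Atp5md, a small membrane subunit, rose by 0.38 ± 0.09 at 3 h and fell by 0.40 ± 0.09 between 3 h and 6 h. Atp5d, the delta subunit of the central stalk, rose by 0.42 ± 0.07 between 3 h and 6 h.

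Of 10 assembly factors tested, 2 rose and 3 fell at 3 h and 3 rose and 3 fell at 6 h. Ndufaf7, a methyltransferase that acts on a complex I core subunit, stood at 26.3, 26.3, 27.6 and 27.2 CPM at 0 h, 46.8, 52.6, 48.3 and 51.2 at 3 h, and 35.1, 28.7, 31.7 and 30.4 at 6 h. It had the largest rise of any member with a mean of at least 5 CPM at 3 h, 0.89 ± 0.07, and fell again by 0.66 ± 0.07 between 3 h and 6 h. Sdhaf2, which attaches the flavin to Sdha, rose by 0.39 ± 0.06 at 6 h.

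These calls depend on how libraries are scaled. With library totals in place of TMM, the median of all genes moved from -0.06 to -0.30 at 3 h and from -0.06 to -0.22 at 6 h. On that scale 4 members rose and 69 fell at 3 h, and 5 rose and 58 fell at 6 h, against 13 and 32, and 14 and 38, with TMM. The mitochondrial mRNAs fell on that scale too, 12 of 13 at each time. Marker lists of other cells also moved with time. Haemoglobin counts were 0.00864% to 0.0235% of the total at 0 h and 0.000677% to 0.00175% at 6 h, the 5 platelet markers summed to 25.6 to 35.4 CPM at 0 h and 6.13 to 10.3 at 6 h. The 8 monocyte markers did not move together: at 3 h, 6 fell and 2 rose. Their sum went from 13934 to 15411 CPM at 0 h to 7735 to 8831 at 6 h, but most of it was Lyz2, which neutrophils also express (13180 to 14558 CPM at 0 h and 6948 to 8063 at 6 h). Csf1r, the defining receptor of monocytes, rose from 139 to 178 CPM at 0 h to 467 to 542 at 6 h, while Ccr2 fell by 2.01 ± 0.24 at 3 h. Their part in these results was not tested, and less RNA per cell cannot be told apart from a change in the cells present.

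Lists of related genes outside the membership are given for context, to be read against the shares of all genes, 26.9% up and 27.5% down at 3 h and 29.6% and 30.4% at 6 h. Of 23 genes that copy, transcribe and translate mitochondrial DNA, 3 rose and 4 fell at 3 h, and 4 rose and 7 fell at 6 h. Polrmt, the mitochondrial RNA polymerase, fell by 1.77 ± 0.33 and 0.80 ± 0.31 from a mean of 1.53 CPM, while Tfam, which packages mitochondrial DNA and starts its transcription, did not pass (-0.19 ± 0.24 and -0.49 ± 0.24). Of 19 citric acid cycle genes, 2 rose and 8 fell at 3 h, and 2 rose and 11 fell at 6 h. Ogdh and Dlst, which encode parts of the 2-oxoglutarate dehydrogenase complex, fell by 0.72 ± 0.05 and 0.77 ± 0.06 at 6 h. Acod1, whose product makes itaconate, an inhibitor of complex II, rose from 101 to 192 CPM at 0 h to 2903 to 4205 at 3 h, a log2 change of 4.51 ± 0.21. Of 32 other assembly factors, 3 rose and 10 fell at 3 h and 7 rose and 10 fell at 6 h. Of 17 genes of cytochrome c and the quinone pool, 7 rose and 2 fell at 3 h and 5 rose and 3 fell at 6 h. Cyc1, the cytochrome of complex III, rose by 0.32 ± 0.07 at 3 h, fell by 0.44 ± 0.07 between 3 h and 6 h, and at 6 h stood at -0.12 ± 0.07 from 0 h without passing. Sqor, which passes electrons from sulphide to ubiquinone, rose by 0.64 ± 0.04 at 6 h.

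Across tissues, mitochondrial mRNA in the matching libraries was 0.148% to 0.547% of all counts in blood, 0.303% to 2.43% in neutrophils, 4.50% to 6.64% in skin and 3.59% to 82.5% in monocytes. Haemoglobin took 89.2% to 93.9% of the counts in blood, and mitochondrial mRNA was 2.21% to 7.45% of its other counts, a range above that of most neutrophil libraries and overlapping that of skin. The nuclear subunits summed to 5555 to 6706 in blood, 6219 to 8773 in neutrophils, 12915 to 15772 in skin and 9556 to 11684 in monocytes, in CPM of the counts outside mitochondrial and haemoglobin genes. Skin ranges for the nuclear sum lay above those of the other tissues and blood and neutrophil ranges overlapped. The Ics libraries, with neutrophil markers, had nuclear sums of 2166.2 to 3196 on the same scale, below every tissue library. The log2 ratio of mitochondrial mRNA to nuclear subunits, which needs no total, was -1.34 to 1.51 in neutrophils, 1.78 to 2.36 in skin, 1.83 to 3.896 in blood and 1.94 to 8.84 in monocytes. Neutrophils lay below the other 3 tissues, whose ranges overlapped.

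The monocyte libraries were widely spread. The 3 libraries labelled IVIG had 53.8%, 28.8% and 6.38% mitochondrial mRNA, and the 4 labelled PBS had 44.2%, 82.5%, 17.1% and 3.59%. The titles carry a series number, and the 3 monocyte libraries of title series 3 were 6.38%, 17.1% and 3.59%, below the 28.8% to 82.5% of the 4 libraries of series 2 and 5. The library at 82.5% had 8984 genes with at least 5 counts, against 11002 to 16378 in the other 6 matching ones. What the title series stands for was not given, and its part in the spread was not tested.

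**Figure D4:**
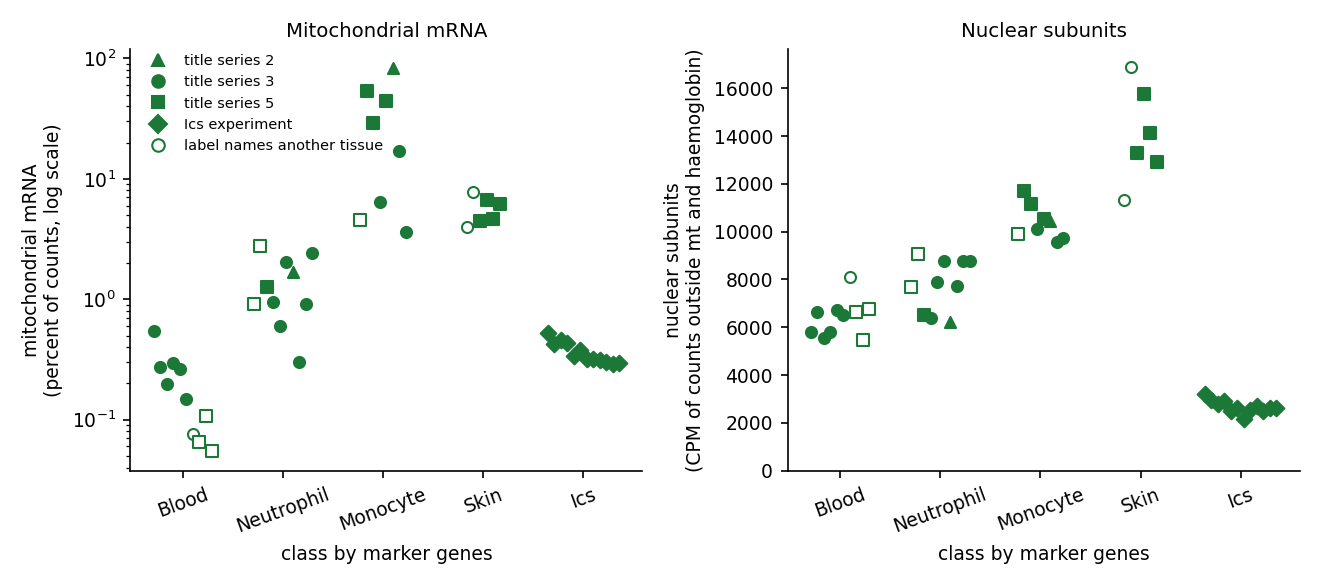
Mitochondrial mRNA as a percentage of counts (left, log axis) and summed nuclear subunits in CPM of the counts outside mitochondrial and haemoglobin genes (right, from 0), 1 point per library, grouped by marker genes, with a symbol for each title series and open points where the label names another tissue. Among matching monocyte libraries mitochondrial mRNA spans 3.59% to 82.5%, while their nuclear sums lie between 9556 and 11684.

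Against monocytes, all 13 mitochondrial mRNAs were called lower in the fit: in neutrophils (median log2 difference -6.06), in skin (-4.10) and in blood (-4.56). The libraries themselves overlapped with those of monocytes, for each of the 13 mRNAs in skin and in blood and for some of them in neutrophils. Of all 18047 genes tested, 12.0% were called lower in neutrophils, 21.0% in skin and 20.0% in blood, and 27.3%, 53.1% and 41.4% differed in either direction. With title series as a covariate the medians were -3.87 in neutrophils, -3.20 in skin and -1.95 in blood, and 6 of 13 mRNAs passed in blood. Among title series 3 libraries alone, 12 of 13 were lower in neutrophils, with a median of -2.50, and 4 of 13 in blood, with a median of -0.96. Every skin-labelled library carried title series 5, so skin had no value from series 3. Without the 2 monocyte libraries whose S100a8 and S100a9 pass the neutrophil limit outside mitochondrial and haemoglobin counts (PBS replicates 2 and 3), the medians were -4.43 in neutrophils and -2.48 in skin.

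The composition of the mitochondrial mRNA varied by tissue as well. The mt-Nd mRNAs took 25.2% to 29.9% of it in skin, 21.7% to 26.5% in monocytes, 18.4% to 22.4% in neutrophils and 15.9% to 20.8% in blood. Neighbouring ranges in that order overlapped, and those of skin and blood did not.

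After TMM scaling, 4 of 85 nuclear subunits were called higher in neutrophils than in monocytes and 4 lower, with a median of -0.04, when 15.4% of all genes were called higher and 12.0% lower. This rests on the scale. In CPM of the counts outside mitochondrial and haemoglobin genes, neutrophil values lie lower by 0.47 on the log2 scale relative to monocytes than after TMM scaling, and the nuclear sums given above were wholly below those of monocytes. Cox6a1, the ubiquitous form of a complex IV subunit, ranged from 84.7 to 120 TMM-scaled CPM in neutrophils (median 99.7) and from 28.5 to 86.3 in monocytes (median 65.8), a log2 difference of 0.60 ± 0.18. Ndufa13, a complex I subunit also known as GRIM-19, ranged from 50.6 to 74.2 CPM in neutrophils and from 27.2 to 60.5 in monocytes, a difference of 0.53 ± 0.15. Both ranges overlapped, and the differences were near the size of that offset. The nuclear subunits higher in neutrophils numbered 7 among title series 3 libraries. That was a separate fit, to which the 15.4% of all genes does not apply, so the 2 counts cannot be compared by share. AA467197 was at 26.8 to 63.0 CPM in neutrophils and 0.0429 to 4.64 in monocytes, a difference of 4.45 ± 0.74, while Ndufa4 did not pass (-0.12 ± 0.18).

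Skin had more nuclear subunit RNA than monocytes on both scales, with 42 of 85 called higher and 4 lower and a median of 0.51, against 32.1% higher and a median of 0.25 over all genes. The counts were 17 of 38 in complex I, 2 of 4 in complex II, 4 of 8 in complex III, 11 of 18 in complex IV and 8 of 17 in complex V. Complex IV holds Ndufa4l2, Cox8b and Cox4i2, which passed the member count limit only through skin-marker libraries. Their part in these counts was largely fixed by that limit, so complex IV cannot be ranked against the others. Ndufb2, a complex I accessory subunit, ranged from 37.0 to 56.6 CPM in skin and from 8.70 to 20.7 in monocytes, a difference of 1.71 ± 0.23. Ndufa4 ranged from 63.3 to 126 CPM in skin and from 34.02 to 63.4 in monocytes (1.11 ± 0.22). Sdhb ranged from 73.4 to 81.1 CPM against 26.2 to 62.1 (0.88 ± 0.24). The ranges of Ndufb2 and Sdhb were apart and those of Ndufa4 touched.

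The largest differences in skin were in tissue-restricted isoforms. Ndufa4l2, a paralogue of Ndufa4 known as a target of hypoxia signalling, was higher by 10.53 ± 0.89 on the log2 scale, a fitted value against monocyte libraries at 0.119 CPM or less. In CPM of all counts it was at 27.4 to 86.2 in the 6 libraries with skin markers, whatever their label, and at 0 in all 10 libraries with blood markers and at most 0.154 in those with neutrophil markers. Cox8b (5.97 ± 1.00), Cox6a2 (4.52 ± 0.96) and Cox7a1 (3.16 ± 1.03), the isoforms of heart and skeletal muscle, and Cox4i2 (2.71 ± 0.76), an isoform of lung and hypoxic tissue, were higher as well. Cox6b2, the testis isoform, was lower (-2.82 ± 0.37). Ndufa4l2 had at least 10 counts in 6 libraries, and Cox8b and Cox4i2 in 7 each. These 3 genes passed the member count limit only through skin-marker libraries. Their place among the largest differences in skin was largely fixed by that limit.

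The muscle isoforms were uneven among the skin-marker libraries. Ordered by the sum of 10 skeletal muscle markers, which was 27.3, 126, 347, 2321, 3799 and 19779 CPM, Cox6a2 was at 2.28, 5.31, 6.65, 21.5, 58.0 and 190 CPM. Cox7a1 was at 4.46, 6.37, 5.50, 11.1, 28.8 and 53.1 CPM in the same order, and Cox8b at 4.06, 13.1, 10.7, 7.30, 25.8 and 45.4. Cox6a2 followed the order of the muscle markers in all 6 libraries, and its share of the Cox6a pair ran from 0.815% to 45.6%. Ndufa4l2 (52.5, 86.2, 41.1, 45.4, 27.4 and 44.5 CPM) and Cox4i2 (1.21, 2.77, 1.82, 0.661, 0.751 and 0.728 CPM) did not. The fourth and the last of these libraries were labelled blood. Summed adipocyte markers were 3167 to 8628 CPM and fibroblast markers 13979.5 to 35470.1 CPM. Their part in these values was not tested.

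**Figure D5:**
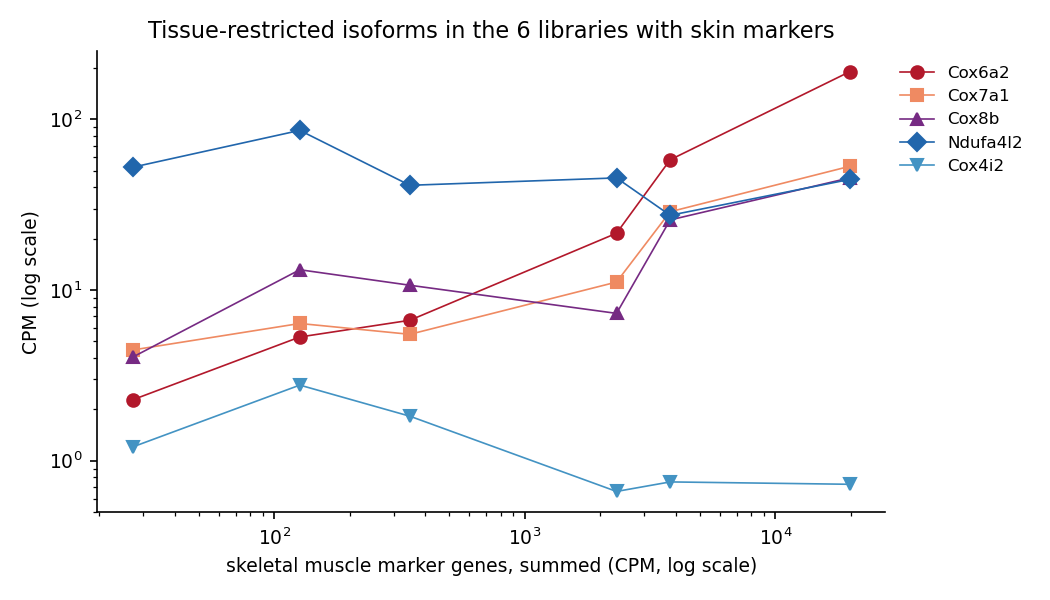
CPM of 5 isoform genes against summed skeletal muscle markers in the 6 libraries with skin markers, 1 point per library, joined by a line for each gene, on log axes. Cox6a2 runs from 2.28 to 190 CPM in the order of the muscle markers, while Ndufa4l2 stays between 27.4 and 86.2.

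Blood had less nuclear subunit RNA than monocytes, with 7 of 85 called higher, 45 lower and a median of -0.72. Of all genes, 21.4% were called higher and 20.0% lower. In CPM of the counts outside mitochondrial and haemoglobin genes, blood values lie lower by a further 0.49 on the log2 scale relative to monocytes. Complex I had 26 of 38 lower and 1 higher. In complex II, Sdhb (-0.89 ± 0.23), Sdhc (-1.73 ± 0.20) and Sdhd (-1.85 ± 0.15) were lower and Sdha did not pass (-0.16 ± 0.20). Sdhd ranged from 11.9 to 23.8 TMM-scaled CPM in blood and from 54.0 to 75.8 in monocytes, with no overlap. The higher ones included Cox6a1 (160 to 249 CPM in blood, 28.5 to 86.3 in monocytes, 1.49 ± 0.19), Atp5h of the ATP synthase stalk (94.0 to 186 against 48.3 to 67.3, 1.25 ± 0.17), Cox6b2 (1.51 ± 0.29) and Cox5a (1.05 ± 0.22). All 4 changed sign with library totals in place of TMM (-2.27, -2.37, -2.06 and -2.59). In CPM of the counts outside mitochondrial and haemoglobin genes, Cox6a1 ranged from 315 to 391 in blood and from 64.1 to 217 in monocytes, and Atp5h from 183 to 328 and from 131 to 158.

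The mitochondrial rRNAs of blood stood apart from its mRNAs. They were at 82% to 145% of the mitochondrial mRNA count in the 6 blood libraries, and were higher than in monocytes (mt-Rnr2 2.65 ± 0.61, mt-Rnr1 1.75 ± 0.61) where all 13 mRNAs were lower. With library totals both rRNAs changed sign, to -0.72 and -1.61.

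IVIG treatment was compared with PBS within each label, using all libraries as labelled. No gene and no member passed in blood, neutrophils, monocytes or skin (0% of 11339, 14033, 14415 and 16171 genes, edgeR). At an unadjusted p under 0.05, 81, 73, 286 and 157 genes passed, and 0 of the 109, 109, 116 and 114 members tested. DESeq2 called 1, 0, 3 and 1 genes and 0 members. With matching libraries only, 5 genes passed in blood and 4 in skin, and 0 members. The members with the smallest p by edgeR were Ndufs3 in blood (log2 change -0.50 ± 0.31), Cox6c in neutrophils (1.69 ± 0.80), Ndufb10 in monocytes (0.49 ± 0.25) and Cox5a in skin (-0.78 ± 0.51). In the matching libraries, mitochondrial mRNA ranged from 0.599% to 2.05% of counts with IVIG and from 0.303% to 2.43% with PBS in neutrophils, and from 0.200% to 0.547% and from 0.148% to 0.297% in blood. The treatments overlapped in all 4 tissues.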

How the data were processed

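Poly(A)-selected RNA was sequenced, per the labels' protocols. The authors deposited estimated counts per gene (length-scaled TPM) for all 46 libraries, made with kallisto 0.46.1 on GRCm38, per the submitters' processing notes. Whether counting used strand is not given in the sources used here. Estimated counts were rounded and tested with edgeR 4.0.16 (R 4.3.3): TMM scaling, genes with low counts filtered at a minimum count of 10, quasi-likelihood F test, with p adjusted over every tested gene (Benjamini-Hochberg) and called under 0.05. SE was derived from the F statistic. The 12 Ics libraries were fitted together and the 25 matching tissue libraries together. The treatment tag contradicted the condition for many samples and was not used.

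Tissue markers were read in this order: over 10% haemoglobin counts, blood; Krt5 plus Krt14 over 100 CPM, skin; S100a8 plus S100a9 over 10000 CPM, neutrophil; otherwise monocyte. These limits were chosen after the values were seen. Members, gene lists and tests were chosen with earlier results of these data known. The genes named were, in each Ics and tissue comparison, the 6 largest rises and the 6 largest falls among members past the limit whose group mean was 5 CPM or more on the higher side, the 13 mitochondrial mRNAs, the complex II subunits and the isoform pairs, and for lists the 2 genes with the smallest p, from which a selection is given. Copies of mitochondrial genes were matched with blastn. The script was tested on simulated data. DESeq2 1.42.0, other scalings and filters, a replicate block, title series, and leaving out each library were tried as alternatives.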

Additional observations from a re-analysis of the deposited data

Results flagged for a closer look

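Of 55 checks, each of 1 quantity in 1 group of 4 to 8 libraries, 3 held a library far from the others. Chance gives about 5% of such checks, and these reuse the same libraries and so are not independent. mt-Co1 in the unstimulated library m1 was at 2011 TMM-scaled CPM, and the other 3 lay between 1681 and 1713. At 3 h, library m2 was at 1782 CPM, and the other 3 lay between 1482 and 1523. Among the 6 matching blood libraries, IVIG replicate 1 had 0.547% mitochondrial mRNA, and the others lay between 0.148% and 0.297%.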

How the results depend on the processing

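The Ics members called higher and lower stayed within 1.5 times of the values given under RLE scaling, DESeq2 and no expression filter, and moved with library totals alone (4 and 69 at 3 h, 5 and 58 at 6 h, 16 and 8 for 6 h against 3 h). Each alternative was a separate fit whose share of all genes is not given here, so its counts cannot be compared by share. Leaving out a library in turn gave 10 to 18 higher and 23 to 35 lower at 3 h, 12 to 18 and 33 to 40 at 6 h, and 6 to 14 and 11 to 19 for 6 h against 3 h, where 10 and 19 were found in full. The lowest values, 6 and 11, came without the 6 h library m3 or m4 and without the 3 h library m2, and 12 were lower without the 6 h library m2. Same-numbered Ics libraries correlated at 0.041 to 0.174 and differently numbered ones at -0.093 to 0.015, and all 12 correlated best with their own number. All same-number values thus lay above all others. The labels do not say that equal numbers are the same animal, so the main fit left the numbers out. Its p-values therefore ignore this likeness, and a block by number was fitted as an alternative. With a replicate block, 14 members were higher and 35 lower at 3 h, 14 and 40 at 6 h, and 9 and 19 for 6 h against 3 h. The mitochondrial to nuclear ratio changed by -0.16 at 3 h, -0.43 at 6 h and -0.26 from 3 h to 6 h. With all mt- members its change was 0.0361 at 3 h, since the rRNAs rose, and -0.15 at 6 h. With medians in place of sums it was -0.30, -0.73 and -0.44. Leaving out a library gave -0.20 to -0.12, -0.46 to -0.40 and -0.31 to -0.24.

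Against monocytes, 5 members were higher and 27 lower in neutrophils, 46 and 26 in skin, and 9 and 66 in blood. Of all genes, 15.4% were higher and 12.0% lower in neutrophils, 32.1% and 21.0% in skin, and 21.4% and 20.0% in blood. The members mt-Ta, mt-Tc, mt-Te, mt-Tn and mt-Ty had at least 10 counts in only 4 to 6 libraries, so their calls rest on few libraries. Each alternative below was a separate fit to which these shares do not apply. Using all libraries as labelled gave 0 and 16 in neutrophils, 18 higher in skin, and 4 and 23 in blood. RLE scaling gave 3 higher in neutrophils and 14 in blood, and DESeq2 gave 16 higher in blood. Title series 3 alone gave 13 lower in neutrophils, and 15 higher and 42 lower in blood. Library totals gave 0 higher in neutrophils, and 0 higher and 118 lower in blood. Leaving out a library gave 3 to 10 and 22 to 31 in neutrophils (3 without monocyte PBS replicate 2 or 5 or skin IVIG replicate 1 or PBS replicate 3, and 10 without monocyte PBS replicate 3), 38 to 50 and 24 to 29 in skin, and 7 to 12 and 62 to 68 in blood. Single genes changed sign with library totals: at 3 h Sdhd (-0.0859), Cox4i1 (-0.0872) and Cox8a (-0.0325), and in blood mt-Rnr2 (-0.72), mt-Rnr1 (-1.61), Cox6b2 (-2.06), Cox6a1 (-2.27), Atp5h (-2.37), Cox5a (-2.59), Cox7a2 (-3.56), Ndufa4 (-3.14), Acod1 (-2.29), Tfam (-2.65) and Polrmt (-3.25). With all libraries as labelled, Cox6b2 in skin (0.0462) and Cox6a2 (4.97), Cox8b (4.95), Ndufa4l2 (7.41) and Cyc1 (0.10) in blood changed sign, as did AA467197 in blood with title series 3 alone (1.32). The causes were not tested. No member was called for IVIG by edgeR when any library was left out.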

Other observations

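All 7 tRNA members, mt-Ta, mt-Tc, mt-Te, mt-Tn, mt-Tp, mt-Ts1 and mt-Ty, lie on the minus strand of the mitochondrial genome. Of the 22 tRNA genes, 8 lie on that strand and 14 on the other, and none of those 14 reached the count limit. In monocytes, neutrophils and skin the mitochondrial rRNAs were at 0.138% to 5.41%, 5.44% to 15.9% and 2.09% to 2.65% of the mitochondrial mRNA count, against 82.1% to 145% in blood.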
